A study of Mus musculus with 12 samples.

Results

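The pancreas of 2 mouse substrains, C57BL6/J and C57BL6/NHsd, was compared in mice that had not received cerulein. The comparison used 6 of the series' 12 Affymetrix arrays, chosen by their titles as controls: 3 from C57BL6/J mice supplied by Jackson (called J) and 3 from C57BL6/NHsd mice supplied by Harlan (called NHsd). All 6 mice were female and 8 weeks old, were injected with saline, and gave 1 array each. The other 6 arrays came from 8-week-old J and NHsd mice, 3 of each, in which cerulein had induced chronic pancreatitis; the labels give no sex for these, and they served here to ask whether a baseline difference was also measured in diseased tissue. Because each substrain came from its own supplier, the effect of the genome and that of the supplier's housing cannot be told apart.

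C57BL/6J and the C57BL/6N lineage, to which the Harlan colony belongs, descend from the same inbred stock and have been bred apart for decades. Their genomes are nearly identical, and the best known difference is a deletion within Nnt in C57BL/6J. Nnt encodes nicotinamide nucleotide transhydrogenase, an enzyme of the inner mitochondrial membrane that uses the proton gradient to make NADPH from NADH, which feeds the glutathione and thioredoxin systems. The pancreas consists mainly of acinar cells, which make and store digestive enzymes; ducts, islets, stroma and resident immune cells make up the rest.

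Values are log2 probe set signals that ran from 2.39, the background floor, to 16.4. Signals under log2 4 are treated as near background. A gene was tested where 1 of its probe sets lay above log2 4 on 3 or more of the 12 arrays, leaving 8505 genes, and was called at a limma adjusted p below 0.05 (Benjamini-Hochberg). The acinar identity of the tissue showed in its most abundant transcripts, with saline means above log2 14 for 10 of 12 measured proteases and zymogens and for 5 of 7 lipases, amylase and nucleases. On the 6 saline arrays Xist, the noncoding RNA of the inactive X, gave log2 9.52 to 10.3. Signals of 3 genes of the Y chromosome (9 probe sets) stayed at or below 3.37 there. The mean correlation of a saline array with its own group was 0.988 to 0.991 and with the other substrain 0.986 to 0.990, and 6 measures of array quality gave exact permutation p-values of 0.2 to 0.7 between substrains (two-sided, smallest possible 0.1). Precision was limited by the 3 arrays per group, with a median standard error (SE) of 0.20 for a log2 difference.

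Of the 8505 genes tested, 5 were called between J and NHsd saline pancreas (0.0588%), 4 of them lower in J (Nnt, Itih4, Wdfy1 and Iglv1) and 1 higher (Ugt2b34). The 4 lower genes were between 2.62-fold and 18.3-fold lower and Ugt2b34 was 3.75-fold higher. At an unadjusted p below 0.05 there were 546 genes (6.42%), 408 with larger values in J (4.8%) and 138 with smaller values (1.62%). That split depended on scaling: it was 296 and 241 with quantile normalization, and 301 and 247 with all arrays at equal medians. The median difference of all genes was 0.06 log2 as deposited, -0.01 with quantile normalization and -0.02 with equal medians, and 1 in 10 genes lay below -0.21 and 1 in 10 above 0.38. When only the 6 saline arrays were fitted, without the spread of the cerulein arrays, limma called 0 genes, with 723 at an unadjusted p below 0.05 and adjusted p of 0.0628 to 0.264 for the 5. With no filter on low signals 37 of 18194 genes were called, of which 1, Nnt, was among the 5; the other 4 then had adjusted p of 0.0544 to 0.0697.

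**Figure D1:**
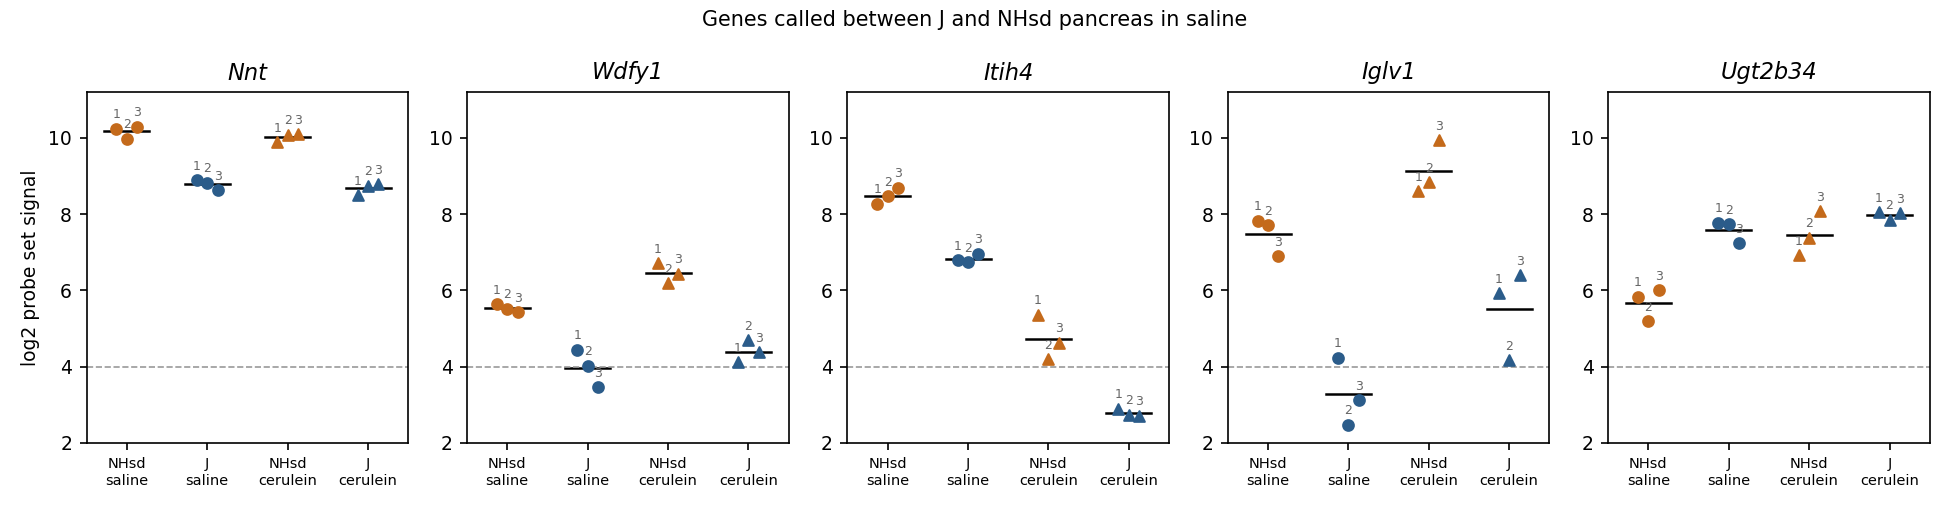
Log2 probe set signal (vertical axis) of the 5 genes called between the substrains in saline, for each of the 12 arrays. Points are single mice labelled with their replicate number, horizontal bars are group means of 3, and the dashed line marks log2 4. The J points lie below all NHsd points in both treatments for Nnt, Wdfy1, Itih4 and Iglv1; for Ugt2b34 they lie above in saline and overlap after cerulein.

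Nnt, the transhydrogenase gene, gave log2 10.24, 9.98 and 10.28 in the 3 NHsd saline mice and 8.89, 8.82 and 8.62 in the 3 J saline mice. All J values lay below all NHsd values, and the mice of each group lay close together. The difference was -1.39 log2 (SE 0.14, n = 3 and 3), 2.62-fold lower in J, with a limma adjusted p of 0.00244. A further Nnt probe set, 1416105_at, gave 8.08, 8.22 and 8.19 in NHsd and 7.16, 6.96 and 6.65 in J. Its difference was -1.24 (SE 0.16, limma adjusted p = 0.0126 over all 14296 kept probe sets). After cerulein the representative probe set gave 9.89, 10.08 and 10.09 in NHsd and 8.49, 8.74 and 8.78 in J, a difference of -1.35 (limma adjusted p = 0.00116). Signal remained well above log2 4 in J mice on both probe sets; where these lie relative to the deletion was not examined. With only the 6 saline arrays in the fit the adjusted p of Nnt was 0.0628; it stayed called without any single one of the 12 arrays.

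Of 21 measured mitochondrial NADPH and glutathione enzymes, Nnt was the 1 called gene, and also the 1 with an unadjusted p below 0.05; the list's median was 0.01 against 0.06 for all genes. Other mitochondrial enzymes gave a difference of 0.07 for Idh2 (isocitrate dehydrogenase), 0.10 for Me2 (malic enzyme) and 0.28 for Glud1 (glutamate dehydrogenase). Me3, another malic enzyme of the list, did not pass the filter, with saline signals of at most 3.43. Gsr, which regenerates reduced glutathione, differed by 0.14, and Prdx3, a mitochondrial peroxiredoxin, by 0.03. The 13 measured targets of NRF2, the transcription factor of the antioxidant response, had a median of 0.09, with 0 calls by limma and 0 at an unadjusted p below 0.05. Nfe2l2, the gene of NRF2 itself, gave 4.88, 4.66 and 4.86 in NHsd and 5.56, 5.83 and 5.51 in J. Its difference of 0.84 was not called (SE 0.17, limma adjusted p = 0.260), and it was chosen after its values were seen. Of 30 oxidative phosphorylation genes 0 were called and 1 had an unadjusted p below 0.05, with differences between -0.17 and 0.37.

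Wdfy1 encodes an endosomal adaptor with WD repeats and a lipid-binding FYVE domain, and J and N lines are known to express it at different levels. It gave log2 5.64, 5.52 and 5.43 in NHsd and 4.44, 4.02 and 3.46 in J saline mice. The 3 J mice were all lower, and 1 of them was under log2 4. The difference was -1.56 (SE 0.24, limma adjusted p = 0.0435), 2.94-fold lower in J. The J mean of 3.97 was just under log2 4, so this size is inexact. The other kept Wdfy1 probe set, 1435588_at, was under log2 4 in all 3 J saline mice and is given as at least 1.78-fold lower in J (limma adjusted p = 0.0297 over all kept probe sets). It passed the filter through its NHsd arrays, and J cerulein replicate 2 (4.26) was the only J array above log2 4. The filter thus favoured a difference below 0 on 1435588_at, which is not separate support. After cerulein Wdfy1 gave 6.71, 6.18 and 6.43 in NHsd and 4.12, 4.69 and 4.37 in J, a difference of -2.05 (limma adjusted p = 0.00324). Its saline call ended without any 1 of the saline arrays except J saline replicate 1, with limma adjusted p of 0.0871 to 0.211. It also ended without NHsd cerulein replicates 1, 2 or 3 or J cerulein replicates 2 or 3, with limma adjusted p of 0.0565 to 0.0955.

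The list of 17 genes known to differ between the lineages held 5 that passed the filter, of which Nnt and Wdfy1 were called lower and 0 were called higher. Ide, the insulin-degrading enzyme, differed by 0.36 (SE 0.27) on its brightest probe set. Its J values of 7.87, 8.40 and 8.26 overlapped those of NHsd at 7.96, 7.82 and 7.67. Another kept Ide probe set gave 7.39, 8.14 and 7.82 in J and 7.11, 7.28 and 7.26 in NHsd, without overlap. Its difference of 0.57 (SE 0.27) was not called (limma adjusted p = 0.734 over all kept probe sets). A less bright kept Ide probe set differed by 0.11, with overlap. Cyfip2, an actin regulator that carries a coding change in C57BL/6N, differed by -0.03 (SE 0.19) and Rptor, a subunit of the mTORC1 kinase complex, by -0.00 (SE 0.16). Entpd4 and Vmn2r65 had no probe set with their symbol alone, so neither was tested as a gene. Probe sets 1438177_x_at and 1449190_a_at list Entpd4 together with another symbol. Both were called higher in J, as described below, and their signal cannot be assigned to 1 gene. Dock2 and the retinal gene Crb1 did not pass the filter, with signals of at most 2.95 and 2.9.

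Itih4 encodes the plasma protein ITIH4, an acute phase glycoprotein related to inter-alpha-trypsin inhibitors secreted mainly by the liver. It gave log2 8.28, 8.47 and 8.69 in NHsd and 6.79, 6.73 and 6.95 in J saline mice. The J values were tightly grouped and all below the lowest NHsd value. The difference was -1.66 (SE 0.24, limma adjusted p = 0.0365), 3.15-fold lower in J. After cerulein the signals were 5.36, 4.19 and 4.63 in NHsd and 2.89, 2.74 and 2.72 in J, so all J mice were then under log2 4 (difference -1.94, limma adjusted p = 0.0048, a size that is inexact near background). Of 8 measured liver genes, Itih4 was the 1 called, the list's median was -0.01, and albumin (Alb) lay under log2 4 on all 6 saline arrays. The Itih4 call in saline ended without any 1 of the 6 saline arrays (limma adjusted p 0.0853 to 0.211) and without NHsd cerulein replicate 3 or J cerulein replicates 2 or 3 (0.0565 to 0.0811).

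Ugt2b34 encodes a UDP-glucuronosyltransferase, an enzyme that attaches glucuronic acid to steroids and foreign compounds. It gave log2 5.83, 5.19 and 6.0 in NHsd and 7.77, 7.73 and 7.24 in J saline mice. The lowest J mouse was above the highest NHsd mouse, and the difference was 1.91 (SE 0.28, limma adjusted p = 0.0365), 3.75-fold higher in J. The other probe set, 1427960_at, differed by 1.59 (SE 0.24, limma adjusted p = 0.0338 over all kept probe sets). After cerulein the signals were 6.91, 7.38 and 8.07 in NHsd and 8.05, 7.85 and 8.02 in J, which overlapped, with a difference of 0.52 (limma adjusted p = 0.581). The change of the difference between treatments was -1.39 and did not pass the test (limma adjusted p = 0.702). The saline call ended without any 1 of the 6 saline arrays (limma adjusted p 0.0853 to 0.211) and without NHsd cerulein replicate 2 or J cerulein replicates 2 or 3 (0.0565 to 0.0811).

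The promoters of Itih4 and Ugt2b34, the called genes found in the RefSeq promoter table (2 of 5), are shown because these 2 genes moved in opposite directions. Each sequence is the 250 bases before the annotated start in the reference genome GRCm38.p6, on the gene's own strand, with CpG dinucleotides in capitals: chr14:30886226-30886475 on the plus strand for Itih4 and chr5:86906938-86907187 on the minus strand for Ugt2b34.
Itih4: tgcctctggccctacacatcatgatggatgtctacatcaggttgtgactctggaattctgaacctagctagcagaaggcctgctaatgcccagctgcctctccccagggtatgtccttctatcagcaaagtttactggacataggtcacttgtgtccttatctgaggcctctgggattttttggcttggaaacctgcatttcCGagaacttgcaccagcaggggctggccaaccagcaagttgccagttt
Ugt2b34: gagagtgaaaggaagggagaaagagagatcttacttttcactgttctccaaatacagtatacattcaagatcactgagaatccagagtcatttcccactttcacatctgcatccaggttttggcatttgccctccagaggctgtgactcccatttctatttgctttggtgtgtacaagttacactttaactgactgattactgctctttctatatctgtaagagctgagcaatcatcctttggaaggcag
Both were poor in CpG, with 1 CpG and 50.8% GC for Itih4 and 0 CpG and 41.6% GC for Ugt2b34, against medians of 6 CpG and 52.4% GC over 32851 promoter windows of 27025 genes. Neither window held the TATA box core, spelled TATAAA, on either strand, which 12.4% of all windows held. The CCAAT box, searched by the letters of its name, was absent from both and present in 33.8% of windows. The GC box, searched as GGGCGG, was absent from both and present in 32.7%. The half-site of the liver factor HNF1, searched as GTTAAT, was absent from both and present in 6.43%. The reference genome is that of C57BL/6J, and the NHsd sequence was not analysed here.

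Iglv1 is a variable segment of the immunoglobulin lambda light chain, made by B cells and plasma cells. It gave log2 7.82, 7.70 and 6.89 in NHsd and 4.23, 2.48 and 3.12 in J saline mice, the largest called difference at -4.19 (SE 0.57, limma adjusted p = 0.0331). The J mean of 3.28 was under log2 4, so the 18.3-fold size is inexact. After cerulein the signals were 8.60, 8.83 and 9.94 in NHsd and 5.93, 4.17 and 6.40 in J, a difference of -3.63 (limma adjusted p = 0.0282). A less bright Iglv1 probe set, 1447918_x_at, was under log2 4 in all 3 J saline mice, at least 1.56-fold below NHsd, and was not called (limma adjusted p = 0.436 over all kept probe sets). Both probe sets can bind related lambda transcripts, so the signal may belong to more than 1 gene. In bulk tissue, fewer cells of a type and less RNA per cell cannot be told apart. The saline call ended without any 1 saline array except J saline replicate 1 (limma adjusted p 0.0853 to 0.184).

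The other antibody genes gave large differences that were not called. Ighm, the mu heavy chain of IgM, gave 10.22, 10.29 and 9.71 in NHsd and 8.27, 5.60 and 8.32 in J. All J mice were below all NHsd mice and J replicate 2 was far below the other J mice; the difference was -2.68 (SE 0.60, limma adjusted p = 0.293), or -1.78 without J saline replicate 2. Jchain, the protein that joins IgM and IgA units, gave 9.88, 9.46 and 9.13 against 8.24, 5.86 and 7.89, with J replicate 2 again lowest (difference -2.16, SE 0.50, limma adjusted p = 0.341, and -1.43 without that mouse). The kappa segment Igkv8-30 gave 8.69, 8.12 and 8.34 against 7.33, 5.29 and 6.91 (difference -1.87, limma adjusted p = 0.410). The Ighm, Jchain and Igkv8-30 differences after cerulein, in other mice, were -2.52, -1.87 and -1.85, again uncalled (limma adjusted p 0.176 to 0.249). The immunoglobulin probe sets picked by symbol that passed the filter had differences below 0 in both treatments, from -0.33 to -4.19 in saline. Several of them, such as 1425247_a_at, 1447918_x_at and 1460423_x_at, passed only through NHsd arrays, with all J arrays under log2 4. The filter thus favoured differences below 0 for these, and the shared direction is not a separate result. These genes are described after their values were seen.

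The signals of Ighm and Jchain made up most of the B and plasma cell list. Its 5 measured genes of 18 summed to log2 10.5 to 11.1 on NHsd and 7.07 to 9.35 on J saline arrays. Without Ighm and Jchain, the remaining Mzb1, Pou2af1 and Ms4a1 summed to 5.17 to 6.14 on NHsd and 4.78 to 5.64 on J saline arrays, which overlap. After cerulein this sum was 5.97 to 6.99 on NHsd and 5.25 to 6.01 on J arrays, which also overlap. There 3 of the list's 5 genes had all J mice below all NHsd mice (4.39% over all genes), among them 1 other than Ighm and Jchain. The list's median after cerulein was -1.10. In saline the single genes were as follows. Mzb1, a chaperone of plasma cells, differed by -0.38, Pou2af1, a B cell coactivator, by -0.54 and Ms4a1 (CD20), under log2 4 on all 6 saline arrays, by -0.33, all uncalled. The receptor components Cd79a and Cd79b and the regulator Pax5 did not pass the filter, with signals of at most 2.63, 3.86 and 2.88. The part of B lineage cell number in the Iglv1 difference was not tested.

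**Figure D2:**
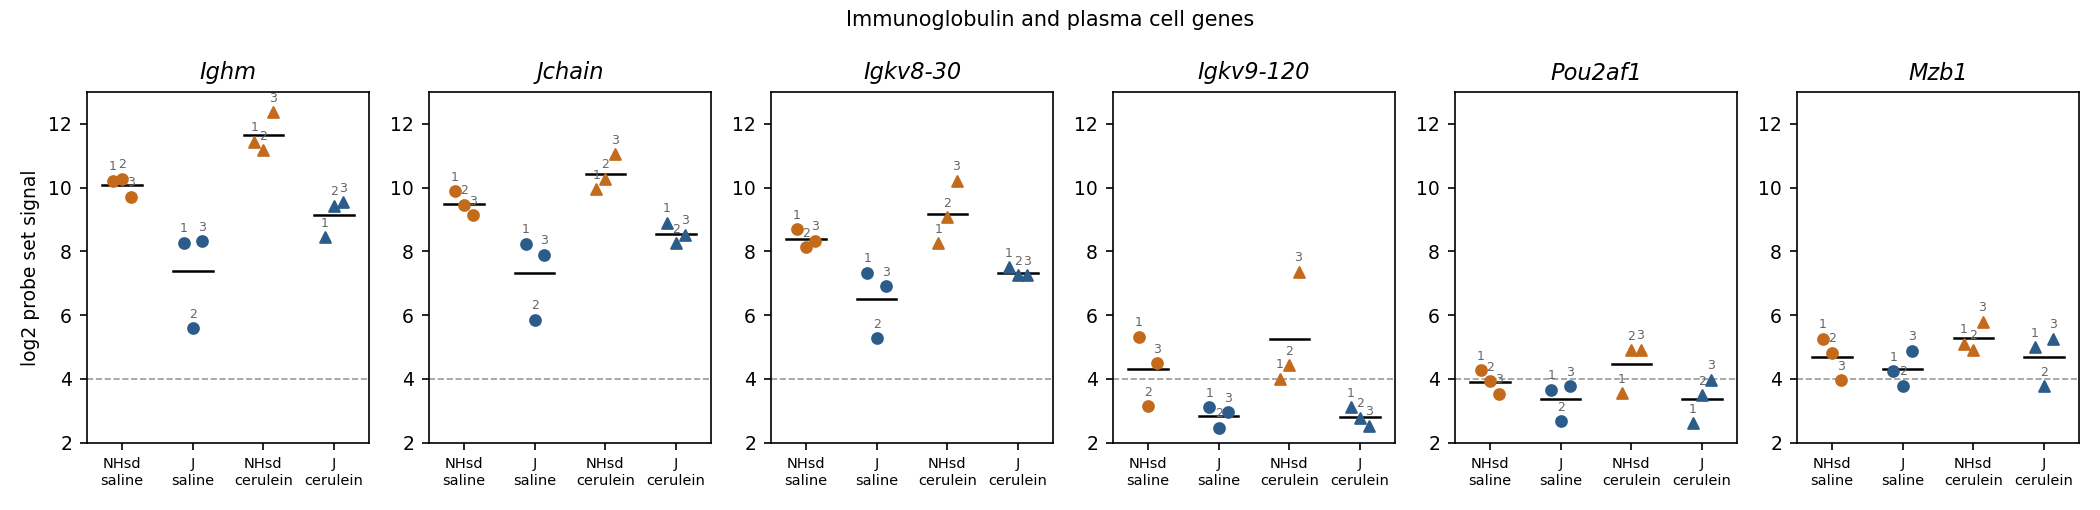
Log2 probe set signal (vertical axis) of 6 immunoglobulin and plasma cell genes on each of the 12 arrays. Points are single mice labelled with their replicate number, bars are group means of 3, and the dashed line marks log2 4. Ighm, Jchain and Igkv8-30 lie lower in every J mouse than in every NHsd mouse of the same treatment, with J saline replicate 2 lowest. Pou2af1 and Mzb1 overlap in saline.

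Probe sets whose annotation lists several genes, or none, were left out of the comparison of genes and were tested in a separate fit over all 14296 kept probe sets, added after the data were seen. It called 13 in saline (0.0909%): 8 with 1 gene, all from the 5 called genes, 3 with several gene symbols and 2 with none. Probe sets 1438177_x_at and 1449190_a_at, annotated with the same several symbols, were higher in J by 1.07 (SE 0.13) and 1.02 (SE 0.16), with limma adjusted p of 0.0126 and 0.0338. On 1438177_x_at the NHsd mice gave 7.04, 7.20 and 7.24 and the J mice 8.28, 8.22 and 8.19 without overlap, and both were also called higher after cerulein, by 1.30. Probe set 1418021_at, with several symbols, gave 7.53, 7.92 and 7.87 in NHsd and 5.36, 5.05 and 5.08 in J. It was lower by 2.61 log2 (difference -2.61, SE 0.32, limma adjusted p = 0.0126); after cerulein its difference was -1.52 (limma adjusted p = 0.114). The 2 without a symbol, 1428719_at and 1428720_s_at, differed by -3.71 and -3.74 and were called in both treatments.

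**Figure D3:**
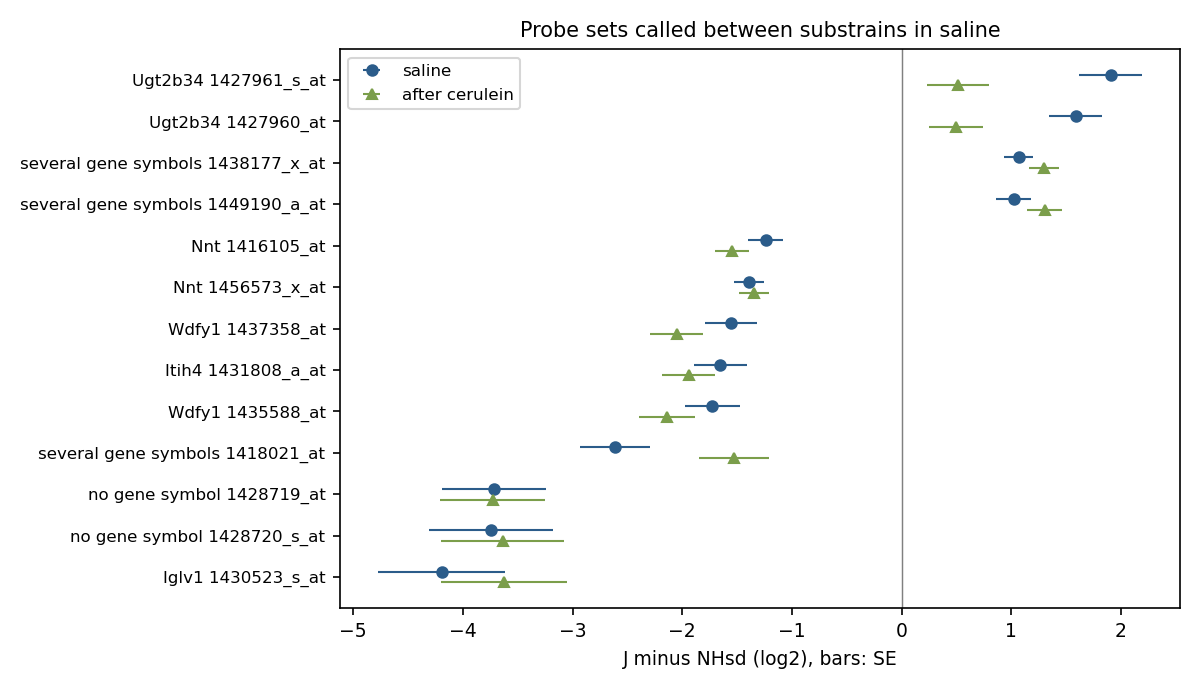
J minus NHsd difference in log2 (horizontal axis) of the 13 probe sets called in saline, with SE bars, in saline (circles) and after cerulein (triangles), 3 mice per group. Each difference keeps its side of 0 after cerulein, and the 2 Ugt2b34 probe sets lie nearest to 0 there; the saline sizes of Wdfy1 and Iglv1 are inexact, with J means under log2 4.

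Just outside the threshold lay Fetub and Papss1, both at a limma adjusted p of 0.0702. Fetub, encoding the liver-secreted protease inhibitor fetuin B, gave 4.84, 4.72 and 4.62 in NHsd and 3.51, 3.67 and 3.74 in J. Its difference was -1.09 (SE 0.18), at least 1.66-fold against log2 4, and after cerulein it was called lower in J (difference -1.10, limma adjusted p = 0.0328). Fetub was called in saline with quantile normalization (limma adjusted p = 0.0191) and with equal medians (0.0197). Papss1, which makes the sulfate donor PAPS, gave 5.90, 6.03 and 5.75 in NHsd and 6.92, 6.73 and 6.58 in J, a difference of 0.85 (SE 0.14). These genes were chosen after their values were seen.

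Digestive enzymes, the main product of the tissue, gave nearly the same signals in both substrains. The 12 proteases and zymogens differed by -0.02 to 0.09 (median 0.03) and 0 were called in either direction. Their summed signal was log2 18.9 at the highest in each group. The trypsinogen gene Prss2 gave 15.46, 15.47 and 15.46 in NHsd and 15.53, 15.43 and 15.46 in J, a difference of 0.01 (SE 0.08). These signals are near the top of the scale, and possible compression of differences at that level was not tested. The 7 lipases, amylase and nucleases had a median of -0.01, the 15 zymogen granule proteins a median of 0.05 and the 12 acinar identity factors a median of 0.12, with 0 calls each by limma. At an unadjusted p below 0.05 there were 0, 0, 2 and 1 genes in these 4 lists. Cckar, the receptor through which cholecystokinin and cerulein act on acinar cells, gave 12.22, 12.10 and 12.32 in NHsd and 12.47, 12.59 and 12.41 in J, a difference of 0.27 (SE 0.12, limma adjusted p = 0.695).

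The Reg family of secreted lectins, which are made in large amounts in pancreatitis, had the lowest median of the acinar lists. Of its 8 measured members (with related pancreatitis genes) 0 were called, 3 had an unadjusted p below 0.05 (limma), the median was -0.26, and 3 had all J mice below all NHsd mice; over all genes that share was 4.19%, and 8.41% had all J mice above (4.39% and 7.94% after cerulein). These shares turn with scaling: 715 genes lay above and 356 below as deposited, 541 and 694 with quantile normalization, and 520 and 711 with equal medians. Reg3a gave 12.28, 11.73 and 12.75 in NHsd and 10.42, 9.18 and 11.44 in J, a difference of -1.91 (SE 0.43, limma adjusted p = 0.293), or -1.32 without J saline replicate 2 and -2.45 without J saline replicate 3. Reg2 gave 14.66, 14.62 and 14.70 in NHsd and 13.85, 13.21 and 14.61 in J, a difference of -0.77, or -0.43 without J saline replicate 2 and -1.13 without J saline replicate 3. Reg3d differed by -0.47. Reg1 differed by -0.05 (SE 0.08) and Reg3g by 0.50, so members of the family did not share a direction.

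Among other immune lists, the neutrophil genes S100a8 and S100a9, which form calprotectin, had the largest differences but also the widest spread. S100a8 gave 8.01, 7.0 and 4.49 in NHsd and 4.0, 2.86 and 4.13 in J (difference -2.84, SE 1.12, limma adjusted p = 0.688). NHsd replicate 3 lay close to the J mice, and 1 J mouse was under log2 4; the difference was -2.08 without NHsd replicate 1 and -3.84 without NHsd replicate 3. The summed signal of the 2 measured erythroid markers of 12, Hbb-b2 and Slc4a1, was log2 7.26, 6.24 and 5.17 in NHsd and 5.86, 5.21 and 5.23 in J. The order of the mice was that of S100a8 in NHsd but not in J. The erythroid list had a median of -0.80 and 0 calls by limma, with 1 gene at an unadjusted p below 0.05. The globin genes Hba-a1 and Hba-a2 did not pass the filter, at no more than 2.39 and 2.79. The part of blood in these differences was not tested. The granule genes Mpo and Elane did not pass the filter, at no more than 2.6 and 2.49. Of 19 macrophage markers 0 were called, 0 had an unadjusted p below 0.05 (limma) and the median was 0.02, with summed levels of log2 10.9 to 11.4 on NHsd and 10.6 to 11.5 on J arrays. Of 20 interferon-stimulated genes 0 were called and 0 had an unadjusted p below 0.05, with a median of 0.05 in saline against 1.02 after cerulein. Among 12 STAT3 and acute phase genes 0 were called and 3 had an unadjusted p below 0.05, and Socs3, a feedback inhibitor of cytokine signalling, gave 7.29, 5.58 and 5.83 in J against 5.31, 4.91 and 5.33 in NHsd (difference 1.05, limma adjusted p = 0.572, and 0.52 without J saline replicate 1).

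Stromal, duct, endothelial and endocrine markers held 0 calls by limma, with 3, 0, 1 and 1 genes at an unadjusted p below 0.05. The 23 stellate cell and fibroblast markers had a median of 0.25 (0.17 with quantile normalization and 0.18 with equal medians), and their summed signal was log2 12.4 to 12.7 on NHsd and 12.8 to 13.1 on J arrays. The matrix proteins lumican (Lum) and dermatopontin (Dpt) differed by 0.69 and 0.65, and NHsd replicate 2 was lowest for both. The 17 duct markers had a median of 0.03, the 11 endothelial markers 0.01 and the 18 islet markers 0.08. Glucagon (Gcg) gave 10.96, 10.66 and 11.49 in NHsd and 11.86, 12.13 and 11.48 in J, a difference of 0.79 (SE 0.21, limma adjusted p = 0.410), and the groups overlapped. Insulin (Ins2) differed by -0.02 (SE 0.11).

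The lists of stress, p53, clock and proliferation genes were also without calls by limma. The 25 genes of ER protein folding and the unfolded protein response, which are high in acinar cells, had a median of 0.03, and the 21 ATF4 targets 0.05, with 0 and 1 genes at an unadjusted p below 0.05. The 13 heat shock genes had a median of 0.23 (0.16 with either other scaling), and 2 had an unadjusted p below 0.05. Hspa8, the constitutive HSP70 chaperone, gave 11.88, 11.82 and 11.83 in NHsd and 12.51, 12.57 and 12.28 in J (difference 0.61, SE 0.13, limma adjusted p = 0.282). Of 17 p53 target and cell death genes, 5 had all J mice above all NHsd mice, 3 had an unadjusted p below 0.05 and 0 were called. Over all genes, 8.41% had all J mice above as deposited (715 genes). Fewer did with quantile normalization (541) or equal medians (520), and the 5 were not recounted under those scalings. Gadd45g, a growth arrest gene, owed its difference of 1.41 (SE 0.48) largely to J replicate 1, at 7.88 against 5.51 and 5.76 in the other J mice, and was 0.66 without it. Aen, a nuclease induced by p53, differed by 0.97 (SE 0.18, limma adjusted p = 0.152). The 12 clock genes had a median of 0.16, with the output factor Dbp at 0.61, and the 18 proliferation genes 0.02 (2 and 1 genes at an unadjusted p below 0.05).

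**Figure D4:**
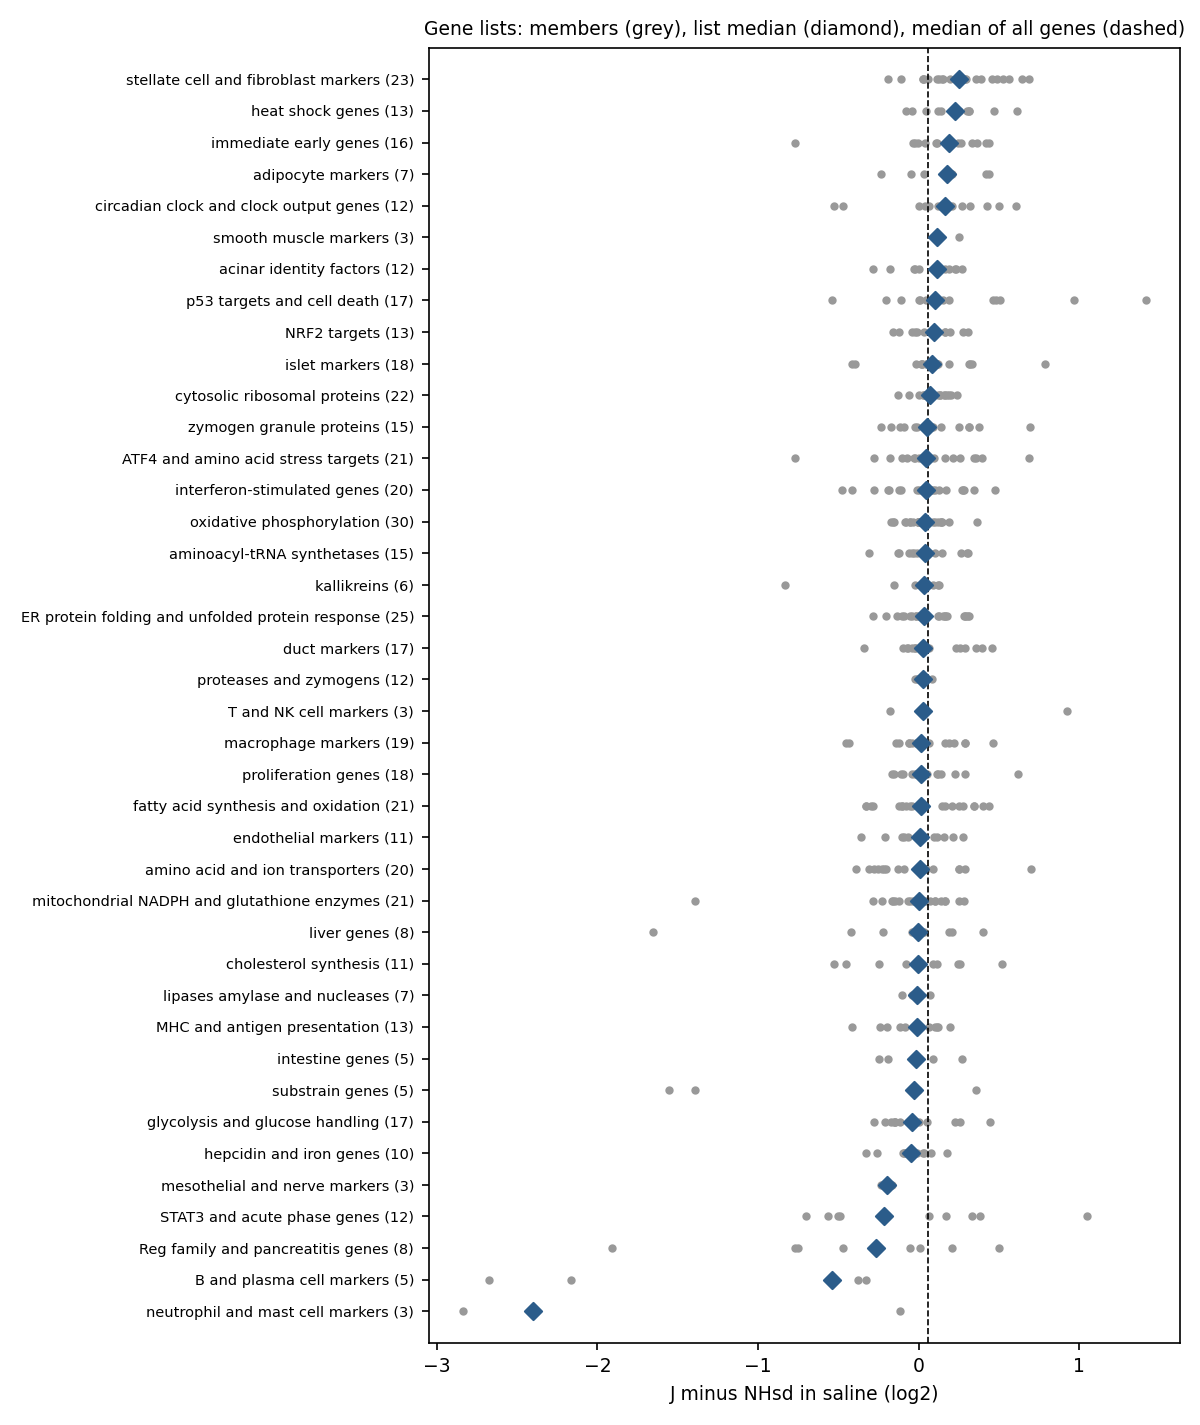
J minus NHsd difference in saline (log2, horizontal axis) of the measured members of each gene list with at least 3 of them, with the number of members in brackets. Grey points are genes, diamonds are list medians and the dashed line is the median of all 8505 genes, 0.06. Most list medians lie close to the dashed line; those farthest from it are the neutrophil and mast cell markers at -2.40 (3 genes) and the B and plasma cell markers at -0.54 (5 genes).

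In all, 37 genes differed at least 2-fold in saline, 21 with larger and 16 with smaller values in J, and 5 of them were called. This split is that of the deposited scaling and was not recounted with quantile normalization or equal medians. Several of the larger values, such as Malat1, Rsrp1 and Clk4, lay just above the 2-fold limit, so the split may turn with scaling. The smaller values included the immunoglobulin and calprotectin genes, Reg3a, Agr2 (a disulfide isomerase of mucous cells, -1.21) and the B cell chemokine Cxcl13 (-1.15, with J replicate 2 lowest at 3.34). Another kept Cxcl13 probe set, 1448859_at, differed by -0.68 in saline, less than 2-fold (limma adjusted p = 0.607 over all kept probe sets). The larger values included the nuclear noncoding RNAs Neat1 (1.42, SE 0.51) and Malat1 (1.03, SE 0.56) and the splicing-related genes Prpf4b (1.28), Ccnl2 (1.08), Rsrp1 (1.05) and Clk4 (1.01). NHsd replicate 2 was the lowest array for Neat1, Prpf4b, Ccnl2, Rsrp1 and Clk4; Prpf4b gave 6.20, 4.07 and 6.30 in NHsd and 6.88, 7.08 and 6.44 in J. None of these passed the test (limma adjusted p 0.494 to 0.822 for the 6), and after cerulein their differences were -0.28 to -0.78. These examples were chosen after their values were seen.

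The same substrain comparison in cerulein-treated mice called 19 genes (0.223%), 14 higher and 5 lower in J, and 4 were called in the same direction in both treatments (0.047%). They were Nnt, Wdfy1, Itih4 and Iglv1, all lower in J, measured in mice that the saline comparison did not include, although both comparisons share 1 estimate of spread. The count of 19 depended on single arrays, from 5 without NHsd cerulein replicate 1 to 89 without NHsd cerulein replicate 3, and its split was 13 higher and 12 lower with quantile normalization and 12 and 10 with equal medians. The count of 4 was 1 to 3 without any 1 of the 12 arrays. Of the 37 genes at least 2-fold apart in saline, 24 had the same sign after cerulein and 11 were again at least 2-fold apart in the same direction. All 11 were lower in J, and several were antibody genes such as Iglv1, Ighm and Jchain. The filter favoured values below 0 for some antibody probe sets, as described above. None of the 21 genes with larger values in J recurred at that size. Among all tested genes, 94 were at least 2-fold apart after cerulein, 67 higher and 27 lower in J. Across all 8505 genes the saline and cerulein differences had a Pearson correlation of 0.08, over genes that share arrays and are not independent.

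**Figure D5:**
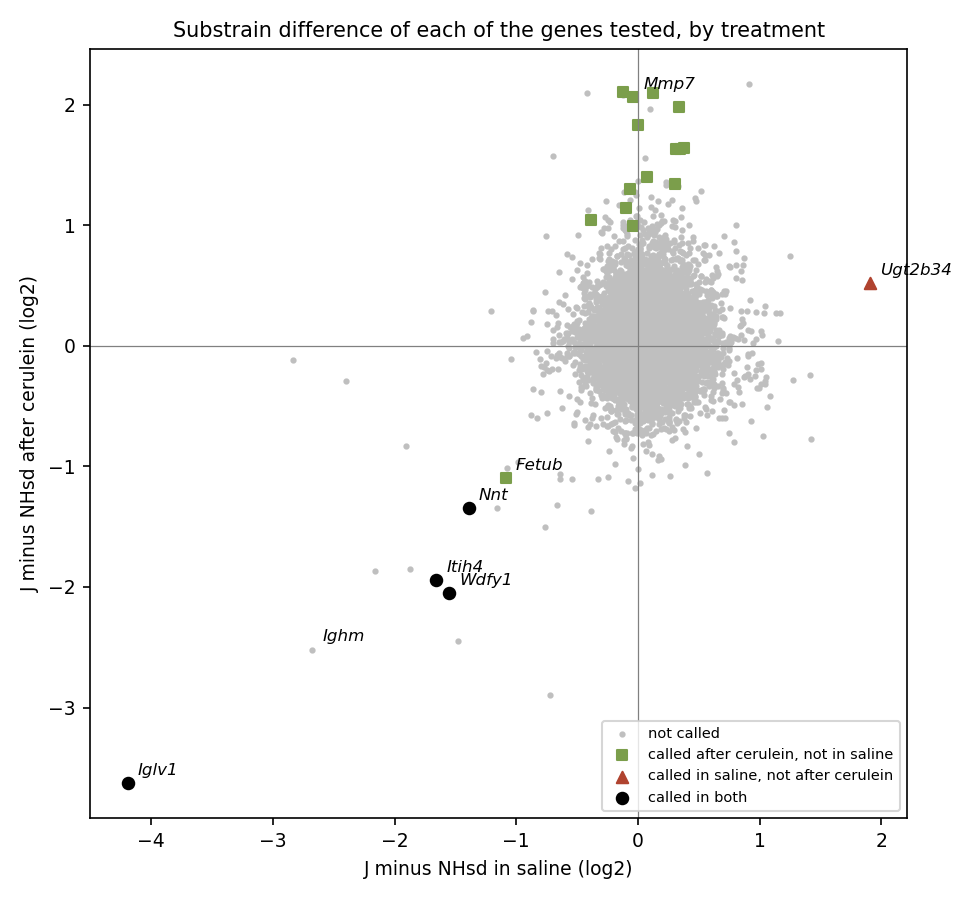
J minus NHsd difference of each of the 8505 tested genes in saline (horizontal axis, log2) and after cerulein (vertical axis, log2). Black points were called in both (4 genes, all in the lower left), the red triangle in saline (Ugt2b34) and green squares after cerulein (15 genes); grey points were not called and show little relation between the axes.

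The change of the substrain difference between treatments was called for 1 gene (0.0118%), Mmp7, which encodes the matrix protease matrilysin. Mmp7 gave 3.89, 3.89 and 3.70 in NHsd and 3.78, 3.89 and 3.70 in J saline mice, all under log2 4. After cerulein it gave 5.56, 6.22 and 5.55 in NHsd and 7.87, 8.08 and 7.57 in J, 2.06 higher in J (limma adjusted p = 0.00116). The change of the difference was 2.10 (SE 0.28, limma adjusted p = 0.0492), and at an unadjusted p below 0.05 there were 598 genes (7.03%). The number called was 0 with equal medians or without any 1 of the saline arrays, NHsd cerulein replicate 1 or J cerulein replicates 1 or 2 (389 to 917 at an unadjusted p below 0.05 without these arrays), and 5 without NHsd cerulein replicate 3.

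Genes that neighbour the called ones in the RefSeq gene order were examined, 10 on each side. Of these 20 neighbours, 12 were measured around Itih4, 10 around Nnt, 7 around Wdfy1, 3 around Iglv1 and 2 around Ugt2b34. Of these 34 genes 0 were called by limma and 5 had an unadjusted p below 0.05. Their differences ran from -0.31 to 0.49 around Itih4, from -0.13 to 0.81 around Nnt and from -0.03 to 0.59 around Wdfy1. For each of the 5 genes, 1 measured neighbour had its J and NHsd arrays apart, which is 14.7% of the 34 against 12.6% of all genes tested; the share with an unadjusted p below 0.05 was also 14.7%, against 6.42%.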

How the data were processed

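Pancreas RNA of 12 mice was measured on Affymetrix arrays. The authors deposited log2 signals per probe set; GCRMA and Partek are named in the submitters' processing notes, with versions not given in the sources used here. They were used without further normalization. Of 45101 probe sets, 34958 carried 1 gene symbol, 932 several and 9211 none in the platform annotation; 34754 were found in RefSeq by Entrez number and 0 symbols changed. Probe sets above log2 4 on at least 3 of 12 arrays were kept (14296, 12780 with 1 gene); the brightest represented a gene (8505 of 18194). limma 3.58.1 (R 4.3.3) fitted 4 group means to 12 arrays (8 residual degrees of freedom), with trended moderation, two-sided, Benjamini-Hochberg adjustment over 8505 genes. The pipeline was tested on simulated data. Fold changes use the deposited log2 scale; where a group lay under log2 4 on all arrays, the fold is a lower bound against log2 4. Samples, lists (43, with 855 entries, 542 measured) and members were chosen with earlier results of these data known. Named genes were called genes with arrays apart, genes called in both treatments, those with the smallest adjusted p for the change between treatments, substrain genes and the 2 or 3 largest differences of a list; others are marked as chosen after their values were seen, as are Idh2, Me2, Gsr, Prdx3, Prss2, Reg1, Reg3g, Ins2 and the other uncalled list members. Alternatives covered scaling, filters, moderation, probe set averaging, arrays fitted, a replicate term, a fold threshold and leaving out each array. Figures used Python 3.11.15, pandas 2.3.3 and matplotlib 3.10.9.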

Additional observations from a re-analysis of the deposited data

Results flagged for a closer look

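The substrain difference of Mmp7, the gene of the matrix protease matrilysin, was larger after cerulein than in saline by 2.10 log2 (limma adjusted p = 0.0492), from -0.04 with all arrays under log2 4 to 2.06. Ern1, which encodes the unfolded protein response sensor IRE1, had all 3 J arrays above the NHsd arrays in saline (difference 0.31) and all below after cerulein (-0.76); the change of -1.07 did not pass the test (limma adjusted p = 0.702). Eda, for the signalling ligand ectodysplasin, had all J arrays below in saline (difference -0.86, J arrays under log2 4). After cerulein all J arrays were above (0.29, all arrays under log2 4), and the change of 1.15 did not pass (limma adjusted p = 0.241). Eda passed the filter only through the 3 NHsd saline arrays, so its direction in saline was fixed by the filter. Over all 8505 genes, 31 had their J arrays above in saline and below after cerulein, as Ern1 did (4.34% of the 715 above in saline, against 4.39% of all genes below after cerulein), and 14 the other way, as Eda did (3.93% of the 356 below in saline, against 7.94% of all genes above after cerulein).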

How the results depend on the processing

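The 5 calls in saline became 37 with no filter on low values, 0 with only the 6 saline arrays and 13 over all kept probe sets (chosen after the data were seen), and 1 to 9 with 1 array left out, the 9 without J cerulein replicate 1. The cerulein count of 19 became 10 with no filter, 3 with the filter on the saline arrays, 0 with 6 arrays (561 at an unadjusted p below 0.05, limma), 36 over probe sets and 5 to 89 with 1 array left out. The 1 gene whose substrain difference changed with treatment became 2 with quantile normalization or no intensity trend, 0 with equal medians, a filter at log2 6, the filter on the saline arrays or all probe sets (limma, 688, 335, 499 and 1073 at an unadjusted p below 0.05), 15 with no filter, and 0 to 5 with 1 array left out. The 4 genes called alike in both treatments became 1 with no filter, 0 with 6 arrays, 10 probe sets, and 1 to 3 with 1 array left out. Fewer arrays leave fewer residual degrees of freedom; otherwise the cause was not tested. With the replicate number as a block the counts were 2 in saline (Iglv1 and Nnt), 7 after cerulein, 1 and 2. Same-numbered saline arrays had correlations of 0.10, -0.05 and -0.16 in their deviations, and same-numbered cerulein arrays 0.13, -0.08 and 0.02. Those of different-numbered saline arrays ran from -0.10 to 0.15. No pairing by number was visible, but so few correlations cannot exclude one. For the 5 called genes, 75 of 120 values stayed called, 45 fell short of the threshold and 0 reversed; of 2236 values of 95 uncalled genes, 2203 stayed uncalled with the same sign, 8 passed and 25 changed sign. Signals near the floor limit the size of differences where a J mean was under log2 4, as in Iglv1, Wdfy1, Fetub, Eda, Agr2, S100a8, S100a9, Pou2af1 and Ms4a1.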
